A study of Homo sapiens with 8 samples.

Results

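SKBR3 cells given bovine serum albumin (BSA) alone were compared with untreated SKBR3 cells. SKBR3 is a human breast cancer line with amplified HER2. BSA is the protein to which estradiol is coupled in the conjugate E2-BSA, so that the array of BSA alone shows the carrier without hormone. The comparison took the value of the BSA array minus that of the untreated array for every probe set with 1 gene symbol, averaged for each gene. This gave 19775 genes from 41091 of the 54675 probe sets of an Affymetrix human array. The BSA array is 1 of 8 arrays, and the difference uses 2 of them.

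Before treatment the cells spent 4 h in 10% charcoal-stripped serum, which is largely freed of steroids, and each condition then lasted 3 h. The BSA cells received BSA at 1e-06 M, and the untreated cells received a change of medium without addition. The other 6 arrays were G15 at 1e-05 M, E2-BSA at 1e-06 M with ICI at 1e-05 M, E2-BSA at 1e-06 M with G15 at 1e-05 M, E2-BSA alone at 1e-06 M, estradiol at 1e-06 M, and 0.1% ethanol, the vehicle of estradiol. G15 is an antagonist of the membrane estrogen receptor GPER, and ICI is named in the labels by this abbreviation alone. The arrays with G15 or ICI are called antagonist arrays below as a shorthand, without a claim that ICI blocks the same receptor. Every condition has 1 array of 1 cell line, so that no difference between 2 arrays has a replicate error, a test or a p-value, and the number of arrays limits the precision. The charcoal-stripped serum contains albumin of its own, which the untreated cells share.

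Albumin is the main carrier protein of blood plasma and binds fatty acids, steroids and metal ions. Cells take it up by endocytosis through caveolae and clathrin-coated pits, degrade it in lysosomes or return it through the receptor FCGRT. Interferon-stimulated genes, which head one part of the results, are switched on when interferons activate STAT and IRF9 complexes that bind a paired GAAA element in promoters.

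The deposited values are centred for each probe set, so that they hold how far an array lies from the others and no level. A gene cannot therefore be called present or absent, and the label SKBR3 cannot be checked against the levels of HER2 or keratins. No source used here states the log base. Values were read as log2, in which a difference of 1 is 2-fold.

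The BSA and untreated arrays lay about as far apart as the median pair of arrays without ethanol. Of the 19775 genes, 6 were at least 2-fold higher with BSA (0.0303%) and 0 were at least 2-fold lower (0%). At 1.5-fold, 70 genes were higher (0.354%) and 40 lower (0.202%). The SD of the difference over genes was 0.166 and its median 0.00. Over all genes 9518 were above 0 (48.1%) and 9770 below, which is the background for the counts within lists given later. Among the 21 array pairs without the ethanol array the SD ran between 0.132 and 0.218, with a median of 0.166, and the number of genes at 2-fold ran between 0 and 14 with a median of 5. The distance between BSA and untreated cells was therefore inside the range between other single arrays of this series. Most of those arrays differ by a hormone or an antagonist. By the same SD the BSA array lay nearer to estradiol (0.153), G15 (0.156) and E2-BSA plus G15 (0.158) than to untreated cells. It lay farther from E2-BSA plus ICI (0.175), E2-BSA (0.200) and ethanol (0.329). The 7 pairs with the ethanol array had 149 to 243 genes at 2-fold.

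The 6 genes at 2-fold were LOC114224, MALAT1, IFI27, LMTK3, FTX and SLC26A6. Only MALAT1 and FTX had several probe sets, and the others rested on a single probe set each. MALAT1 is an abundant noncoding RNA of nuclear speckles, and FTX is a noncoding RNA of the X-inactivation centre. IFI27 is an interferon-stimulated gene of mitochondria. LMTK3 is a lemur family kinase that has been linked to estrogen receptor signalling in breast cancer, and SLC26A6 exchanges chloride for bicarbonate and other anions at the cell surface.

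MALAT1 had a value of 1.04 on the BSA array, against -0.32 on the untreated array. It had 0.65 with G15, 0.84 with E2-BSA plus ICI and 0.73 with E2-BSA plus G15, against -0.13 with E2-BSA, -0.19 with estradiol and -0.12 with ethanol. By the mean of its 12 probe sets the BSA array was the highest of the 8, the 3 antagonist arrays came next, and the untreated array was the lowest. BSA minus untreated was 1.36, or 2.57-fold, by that mean. The single probe set whose name marks it as specific to 1 transcript went against this order. It had -0.05 with BSA and 0.00 in untreated cells, and it had -0.77 with G15, -0.52 with E2-BSA plus ICI and -0.74 with E2-BSA plus G15, against 0.24 to 0.27 with E2-BSA, estradiol and ethanol. On that probe set the antagonist arrays were thus the lowest, and BSA lay next to untreated.

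LMTK3 had 0.54 with BSA, against -0.63 in untreated cells. It had 0.62 with G15, 0.49 with E2-BSA plus ICI and 0.74 with E2-BSA plus G15, against 0.00 with E2-BSA, -0.13 with estradiol and -0.09 with ethanol. The BSA array lay among the 3 antagonist arrays, and the untreated array lay apart below all others. The difference was 1.17, or 2.25-fold. The other lemur kinases did not share it, with LMTK2 at -0.04 and AATK at -0.30.

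FTX had 0.59 with BSA and -0.48 in untreated cells. The 3 antagonist arrays had 0.02 with G15, 0.21 with E2-BSA plus ICI and 0.25 with E2-BSA plus G15, against -0.08 with E2-BSA, 0.00 with estradiol and -0.45 with ethanol. FTX was thus highest with BSA, and ethanol lay next to untreated at the low end. The difference was 1.07. SLC26A6 had 0.55 with BSA and -0.48 in untreated cells, with the other 6 arrays between -0.13 and 0.45 and E2-BSA plus ICI nearest to BSA. Its difference was 1.03.

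LOC114224, which RefSeq lists as a long noncoding RNA and to which no role is given here, had 0.68 with BSA and -0.70 in untreated cells. Its 3 antagonist arrays had -0.59 with G15, -0.05 with E2-BSA plus ICI and -0.11 with E2-BSA plus G15, against 0.26 with E2-BSA, 0.08 with estradiol and 0.57 with ethanol. Here ethanol stood next to BSA and G15 next to untreated. The difference of 1.38 was the largest of all genes.

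**Figure D1:**
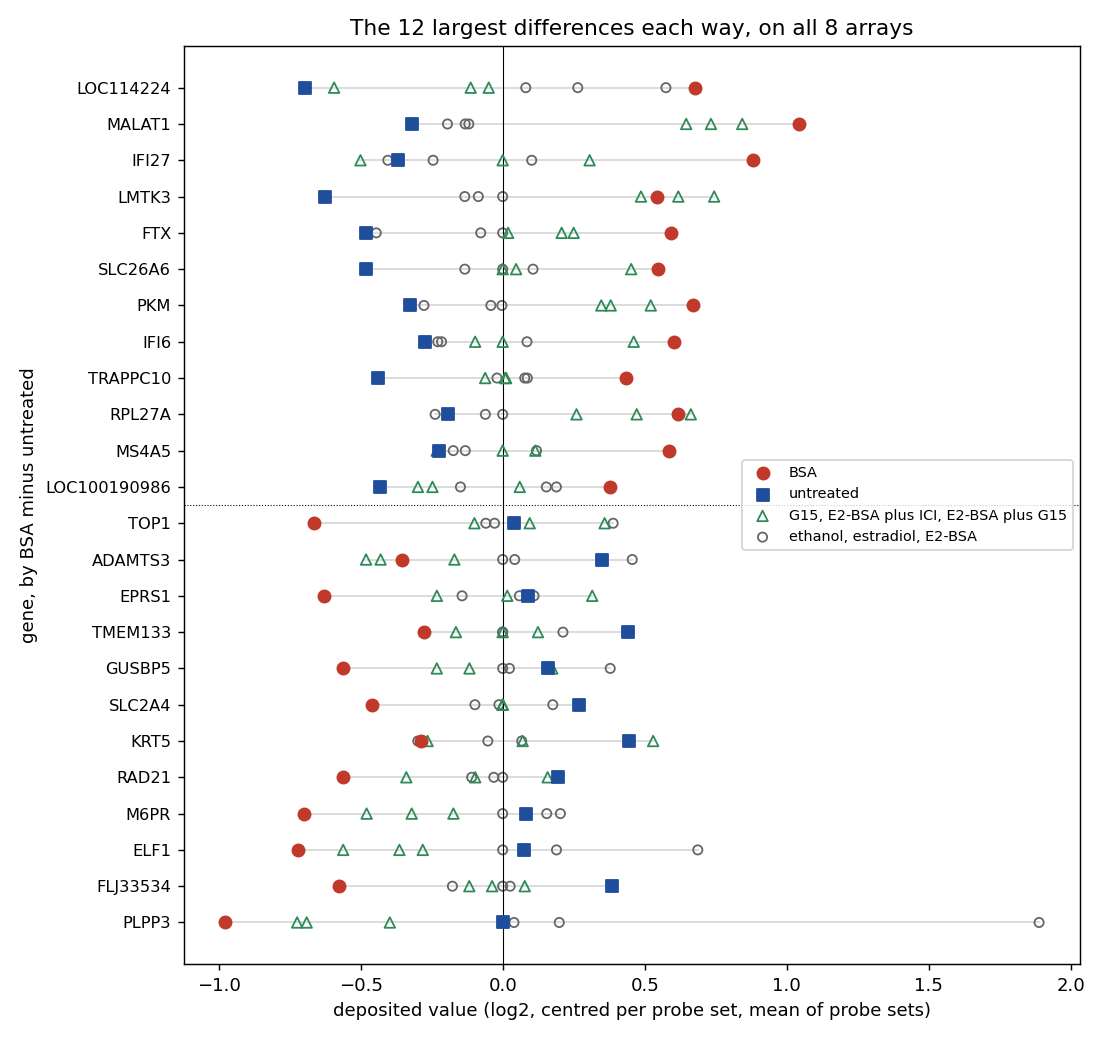
Deposited values (log2, centred for each probe set, mean of a gene's probe sets) of the 12 genes with the largest positive and the 12 with the largest negative difference, 1 point per array. Red circles are BSA and blue squares untreated cells. For LMTK3, PKM, RPL27A and the mean of MALAT1's probe sets the green antagonist arrays lie towards BSA, while for TRAPPC10 the other 6 arrays lie between BSA and untreated.

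Interferon-stimulated genes gave the list with the highest median in the values as deposited, with immediate early genes next at 0.095. After quantile scaling the immediate early genes were the higher of these lists, at 0.126 beside 0.109. Of the 45 interferon effectors, all measured, 33 were above 0 and 12 below, beside 48.1% of all genes above 0. The median was 0.102, beside 0.00 over all genes. Members at 1.5-fold higher were IFI27, IFI6 and IFITM1, 3 of 45, beside 0.354% of all genes, and none was 1.5-fold lower. Each of these 3 rested on a single probe set. The promoters of these 3 are shown because each holds the paired GAAA element. They run over 250 bases before and 50 bases after the start of the gene in RefSeq on GRCh38.p14, at chr14:94110486-94110785 on the + strand for IFI27, chr1:27672143-27672442 on the - strand for IFI6 and chr11:313790-314089 on the + strand for IFITM1. Capitals mark matches to GAAANNGAAA on either strand, written 5′ to 3′ on the strand of the gene.
IFI27: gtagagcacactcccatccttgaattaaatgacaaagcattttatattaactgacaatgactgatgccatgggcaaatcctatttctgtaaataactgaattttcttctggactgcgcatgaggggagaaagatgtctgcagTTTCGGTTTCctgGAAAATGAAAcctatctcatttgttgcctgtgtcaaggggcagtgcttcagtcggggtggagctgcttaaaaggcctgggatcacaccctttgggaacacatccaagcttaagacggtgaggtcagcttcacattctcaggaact
IFI6: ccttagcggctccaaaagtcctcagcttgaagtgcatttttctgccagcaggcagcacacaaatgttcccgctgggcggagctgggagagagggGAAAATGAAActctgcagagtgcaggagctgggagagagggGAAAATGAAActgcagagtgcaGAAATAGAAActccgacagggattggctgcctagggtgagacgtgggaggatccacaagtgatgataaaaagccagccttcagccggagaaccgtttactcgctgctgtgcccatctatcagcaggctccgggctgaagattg
IFITM1: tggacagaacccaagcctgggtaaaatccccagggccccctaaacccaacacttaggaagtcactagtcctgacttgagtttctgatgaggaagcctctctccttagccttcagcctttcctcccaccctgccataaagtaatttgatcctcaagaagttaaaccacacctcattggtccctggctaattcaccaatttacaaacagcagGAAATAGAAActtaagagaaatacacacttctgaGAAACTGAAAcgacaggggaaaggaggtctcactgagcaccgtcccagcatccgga
IFI27 holds 2 matches, IFI6 3 and IFITM1 2.

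The element is found in 3.65% of the 27305 promoters of this length, and in 23 of the 35 interferon effectors with a promoter in the table. The 23 effectors with a match had a median difference of 0.12 with 16 above 0, and the 12 without had 0.08 with 8 above 0. Of the 56 genes 1.5-fold higher with BSA that have a promoter in the table, 3 held the element. A match describes letters and does not show that a factor is bound.

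IFI27 had 0.88 with BSA and -0.37 in untreated cells. It had 0.00 with G15, -0.50 with E2-BSA plus ICI and 0.31 with E2-BSA plus G15, against -0.40 with E2-BSA, -0.24 with estradiol and 0.10 with ethanol. BSA was the highest array, and E2-BSA, which carries the same protein, lay close to the untreated value. The difference was 1.25, or 2.38-fold.

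IFI6, another mitochondrial interferon-stimulated protein, had 0.60 with BSA and -0.27 in untreated cells. The antagonist arrays had -0.10 with G15, 0.00 with E2-BSA plus ICI and 0.46 with E2-BSA plus G15, against -0.23 with E2-BSA, -0.22 with estradiol and 0.09 with ethanol. BSA was again the highest and E2-BSA close to untreated. The difference was 0.87. IFITM1, which blocks the entry of viruses at membranes, had 0.47 with BSA and -0.21 in untreated cells, a difference of 0.68. Its antagonist arrays had -0.02 with G15, 0.02 with E2-BSA plus ICI and 0.17 with E2-BSA plus G15. E2-BSA had -0.22, estradiol -0.08 and ethanol 0.00. For IFI27, IFI6 and IFITM1 alike, E2-BSA plus G15, which also carries albumin, came second to BSA. E2-BSA plus ICI, which carries it too, was the lowest array for IFI27.

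Other effectors were spread on both sides. LY6E, a surface protein of the same response, differed by 0.57. The antiviral ubiquitin-like ISG15 at 0.56, the GTPase MX1 at 0.44 and the tether BST2 at 0.44 were chosen after their values were seen. On the other side RSAD2 (viperin) differed by -0.39, the GTPase GBP1 by -0.25, SAMD9L by -0.18 and IFIT3 by -0.16. The list median on single arrays was 0.07 with BSA and -0.02 in untreated cells, and it was 0.04 with E2-BSA and 0.07 with ethanol.

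The genes that carry the interferon signal gave no common shift. Of 25 measured members, 13 were above 0 and 10 below, with a median of 0.00. IRF3, the transcription factor that starts interferon production, was 1.5-fold higher at 0.59, and the kinase JAK2 was lowest at -0.34. IRF3 had 0.42 with BSA and -0.18 in untreated cells, and the 3 antagonist arrays at 0.13 to 0.52 lay above the 3 arrays of E2-BSA, estradiol and ethanol at -0.15 to 0.00. The interferon genes IFNB1 and IFNL1 had differences of 0.00. Class I antigen presentation had a median of 0.03, with CALR (calreticulin) highest at 0.29 and NLRC5 lowest at -0.17.

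Of the 22 measured members of a list of known noncoding RNAs, MALAT1 and FTX were the 2 that reached 1.5-fold. Beside this, 0.354% of all genes were 1.5-fold higher and 0.202% lower. Of the 22, 13 were above 0 and 9 below, and the median was 0.03. PSMA3-AS1 differed by 0.51 and GAS5 by 0.49, while NORAD differed by -0.31, JPX by -0.15, TUG1 by -0.12 and MIAT by -0.08. Over all 2658 genes that RefSeq calls lncRNA the median difference was 0.01, and 14 (0.527%) were 1.5-fold higher and 5 (0.188%) lower. LOC114224 at 1.38 and LOC100190986 at 0.81 were among the higher ones, and FLJ33534 at -0.96 among the lower. Transcripts known for introns that stay in the nucleus had a median of 0.05, with ANKRD36B at 0.51 and RBM25 at -0.30.

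The 3 lists with medians at or below -0.1 were those of DNA replication, mitosis and immune cell markers. Of 48 measured G1/S genes, 39 were below 0, beside 9770 of all 19775 genes. Their median was -0.14. CDC25A, the phosphatase that opens S phase, differed by -0.45, the origin protein ORC1 by -0.42, the repressor E2F7 by -0.36 and the kinase CDC7 by -0.35. E2F1 was the highest at 0.35, with both of its probe sets above 0, at 0.43 and 0.27. The means of RFC5 at 0.15, CCNE1 at 0.14 and FAM111B at 0.05 were also above 0, while their probe sets lay on both sides. RFC5 had -0.03, -0.27 and 0.76, CCNE1 -0.09 and 0.36, and FAM111B -0.12 and 0.22. None of the 48 reached 1.5-fold by its mean.

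CDC25A had -0.26 with BSA and 0.19 in untreated cells. The antagonist arrays had -0.33 with G15, -0.17 with E2-BSA plus ICI and -0.15 with E2-BSA plus G15, against 0.09 with E2-BSA, 0.00 with estradiol and 0.21 with ethanol. By the mean, BSA and the 3 antagonist arrays were the 4 low arrays of this gene. Its 3 probe sets differed by -0.89, -0.07 and -0.39. On the first the antagonist arrays had -0.85, -0.51 and -0.28 in the same order, on the second -0.02, -0.01 and -0.04, and on the third -0.13, 0.00 and -0.14, so that the first carried most of the antagonist values. Over the whole G1/S list the median on single arrays was -0.07 with BSA and 0.06 in untreated cells, and the other 6 arrays lay between -0.04 and 0.07.

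Of 33 genes of G2 and mitosis, 25 were below 0, beside 9770 of all 19775 genes. Their median was -0.14. The kinesin KIF14 was lowest at -0.45 and the kinase PLK1 highest at 0.42. The list median was -0.04 with BSA and 0.10 in untreated cells, and it was -0.45 with ethanol, the lowest of the 8 arrays. Histone genes, whose transcripts are made in S phase, were measured for 38 of 56 listed genes. Of these 24 were below 0 and 12 above, with a median of -0.05. H3C3 at -0.44, H2BC4 at -0.40, H3C2 at -0.38 and H2BC13 at -0.31 stood at the low end, and H4C4 at 0.46, H1-1 at 0.41, H2AC15 at 0.27 and H1-5 at 0.25 at the high end. Histone transcripts mostly lack a poly-A tail and are similar in sequence, so that single members are uncertain.

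Immune cell markers, 12 measured of 14, had a median of -0.12 with 9 below 0. CD3D was lowest at -0.30 and CD4 highest at 0.08. Endothelial markers had a median of 0.00 over 9 genes, with KDR at 0.11 and CLDN5 at -0.15. Fibroblast markers had a median of -0.05 over 12 genes, with COL6A3 at 0.43 and COL5A1 at -0.15. All arrays are labelled as the same cell line, so these lists were not read as numbers of immune, endothelial or fibroblast cells. The values carry no level by which to tell whether such genes are expressed at all. Whether the cultures held any other cells was not tested.

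**Figure D2:**
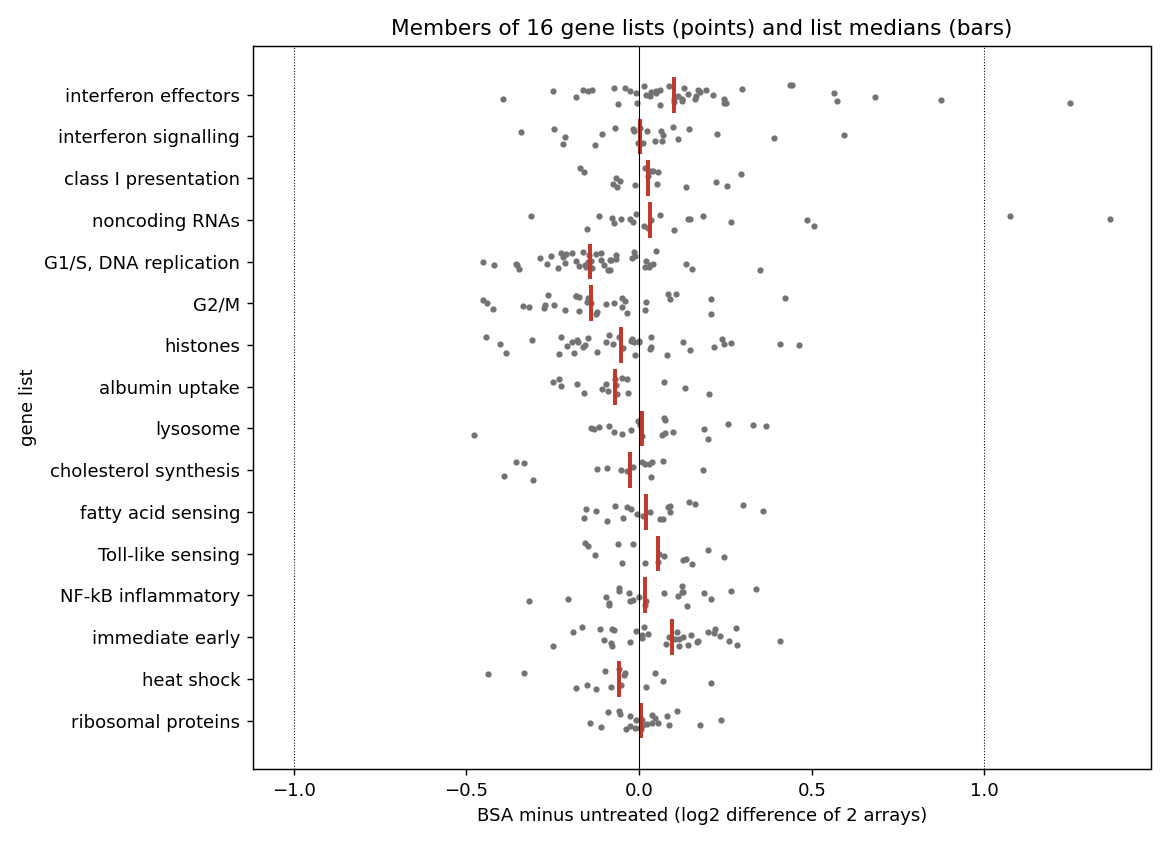
BSA minus untreated (log2 difference of 2 arrays) of each member of 16 gene lists, with red bars at the list medians and dotted lines at 2-fold. The interferon effectors have their bar at 0.10 and 3 members beyond 0.6, while the G1/S and G2/M bars lie at -0.14 with no member beyond 0.5 in size.

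Genes of albumin uptake were chosen because the added protein is their cargo. Of 17 measured genes, 14 were below 0 and 3 above, beside 48.1% of all genes above 0. The median was -0.07. PICALM, a clathrin adaptor, was lowest at -0.25 and DNM2, the dynamin that pinches off vesicles, highest at 0.20. FCGRT, the receptor that returns albumin to the surface, differed by 0.13, and the caveolins CAV1 and CAV2 by -0.16 and -0.23. The last 3 were chosen after their values were seen. No member reached 1.5-fold. Lysosomal genes had a median of 0.01 over 21 genes, between ATP6V1A at -0.48 and ATP6V1H at 0.37, both subunits of the proton pump.

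Lists for the ligands that albumin carries moved little. Fatty acid sensing had a median of 0.02, with NR1H3 (the oxysterol receptor LXR alpha) at 0.36 and LPCAT3 at -0.16. Fatty acid synthesis had a median of -0.03, with FASN at 0.22 and THRSP at -0.34, and cholesterol synthesis -0.03, with MVD at 0.19 and SQLE at -0.39. Zinc and metallothionein genes had a median of -0.096, with MT1M at 0.24 and the zinc exporter SLC30A1 at -0.23. Glucocorticoid receptor targets had a median of -0.01, between ZBTB16 at 0.26 and TSC22D3 at -0.23.

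Lists for bacterial products were included because protein preparations can contain them. Toll-like receptor sensing had a median of 0.06 over 15 genes, with the adaptor TICAM1 at 0.25 and the co-receptor CD14 at -0.16. NF-kB and inflammatory genes had a median of 0.02 over 23 genes, with IL1A at 0.34 and NFKB1 at -0.32, while on the ethanol array the same list had a median of 1.52. Immediate early genes had a median of 0.09 over 34 genes with 23 above 0, FOSL1 highest at 0.41 and NR4A3 lowest at -0.25. No member of these 3 lists reached 1.5-fold.

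Stress lists lay near 0. Heat shock genes had a median of -0.06, with HSPB1 at 0.21 and HSPH1 at -0.44. The ATF4 and unfolded protein list had -0.02, with SLC7A5 at 0.11 and SLC7A11 at -0.30, and the NRF2 list -0.04, with AKR1C1 at 0.12 and AKR1C3 at -0.58. Hypoxia and glycolysis genes had 0.01, with EGLN3 at 0.47 and MXI1 at -0.33, and p53 targets -0.02, with CDKN1A at 0.19 and RRM2B at -0.39. Ribosomal proteins had 0.01, with RPLP2 at 0.24 and RPL37 at -0.14, and oxidative phosphorylation 0.05, with UQCRC1 at 0.21 and NDUFS1 at -0.27.

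Hormone-related lists bear on BSA as the control for E2-BSA. GPER-linked genes had a median of -0.04 over 12 genes, with FOS at 0.22 and CCN2 at -0.25. Estrogen receptor targets had -0.07 over 21 genes. TFF3, a secreted trefoil peptide, was 1.5-fold higher at 0.59 and NRIP1, a nuclear receptor co-repressor, lowest at -0.39. Steroid receptors had -0.01, with PGR at 0.27 and NR3C2 at -0.17, and the cAMP list 0.01, with PPARGC1A at 0.20.

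TFF3 had 0.55 with BSA and -0.04 in untreated cells. The other 6 arrays lay between -0.23 with E2-BSA plus ICI and 0.20 with E2-BSA plus G15, so that the BSA array alone was high. AZGP1, a secreted glycoprotein of apocrine cells, was the member of the luminal list at 1.5-fold, at 0.71, and GATA3 was lowest at -0.14. The HER2 amplicon and its receptor family had a median of 0.09 over 18 genes, with 13 above 0, beside 48.1% of all genes. ERBB2 itself differed by 0.15, GRB7 by 0.27 and STARD3 by 0.26, with TCAP highest at 0.32 and MED1 lowest at -0.35. ERBB2, GRB7 and STARD3 are given as listed markers of the amplicon, outside the rule that names genes by size. TOP2A at -0.17, CDK12 at -0.06 and PSMD3 at -0.05 were among the members below 0. Of 6 basal markers measured, with a median of 0.02, the keratin KRT5 was lowest at -0.73 and TAGLN highest at 0.18.

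The remaining lists had medians between -0.07 and 0.06. They were TGF-beta and BMP (-0.05, SMAD7 0.19), YAP (-0.04, SOX9 0.27, ANKRD1 -0.43), Wnt (0.01, DKK1 0.42, RNF43 -0.18), Notch (-0.04, NOTCH3 0.31, NOTCH2 -0.21) and the aryl hydrocarbon receptor (-0.07, ALDH3A1 0.17, CYP1A1 -0.53). EGF ligands had -0.04 (NRG4 0.17, BTC -0.36), short-lived transcripts 0.06 (JUN 0.26, MYC -0.27) and KRAB zinc fingers 0.02 (TRIM28 0.36, ZNF420 -0.45). Anion exchangers had 0.06, with SLC4A2, the widespread chloride and bicarbonate exchanger, at 0.61 beside SLC26A6, and SLC26A2 at -0.37. Of the 45 lists, 37 held no member at 1.5-fold.

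Several other genes with 2 or more probe sets in one direction were higher with BSA. PKM, pyruvate kinase, lay just under 2-fold at 0.995, with its 2 probe sets at 0.97 and 1.02. It had 0.67 with BSA and -0.33 in untreated cells, and the antagonist arrays at 0.35 to 0.52 lay above E2-BSA, estradiol and ethanol at -0.28 to 0.00. TRAPPC10, a vesicle tethering subunit, differed by 0.87, the polycomb subunit PCGF1 by 0.78, the adhesion protein ZYX by 0.72, the vesicle SNARE VAMP2 by 0.71, the glucosidase subunit PRKCSH by 0.71 and the Golgi calcium binder NUCB1 by 0.65. Among single-probe genes, RPL27A and MS4A5 both differed by 0.81.

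At the lower end PLPP3, a phosphatase of lysophosphatidic acid and related lipids, lay just under 2-fold at -0.98. It had -0.98 with BSA and 0.00 in untreated cells. The antagonist arrays had -0.72 with G15, -0.40 with E2-BSA plus ICI and -0.69 with E2-BSA plus G15, against 0.20 with E2-BSA, 0.04 with estradiol and 1.89 with ethanol. By the mean, BSA and the 3 antagonist arrays were low, and ethanol stood far above all others. On 1 of its 3 probe sets BSA had -0.13, and the antagonist arrays had 0.04, 0.07 and -0.11 in the same order. The low antagonist values were thus not shared by that probe set.

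FLJ33534 differed by -0.96. The transcription factor ELF1 differed by -0.79, M6PR, a receptor that sorts lysosomal enzymes, by -0.78, the cohesin subunits RAD21 and STAG2 by -0.76 and -0.64, and the glucose transporter SLC2A4 by -0.73. EPRS1, a tRNA synthetase, differed by -0.72, the protease ADAMTS3 by -0.70, the topoisomerase TOP1 by -0.70, EDEM3, which trims sugars of misfolded proteins, by -0.68, DEPDC1 by -0.67, PDE8B, a cAMP phosphodiesterase, by -0.65 and NAA35 by -0.60. M6PR had -0.70 with BSA and 0.08 in untreated cells, with the antagonist arrays at -0.48 to -0.17 and E2-BSA, estradiol and ethanol at 0.00 to 0.20.

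Probe sets of one gene often disagreed. Of 10523 genes with several probe sets, 1151 (10.9%) had values at least 1.5-fold apart. Of the 110 genes at 1.5-fold, 81 rested on a single probe set, and of the other 29, 19 had probe sets 1.5-fold apart. LOC114224, IFI27, LMTK3, SLC26A6, IFI6 and IFITM1 were among the 81. So were IRF3, TFF3, AZGP1 and SLC4A2 of the higher genes, and FLJ33534, M6PR, SLC2A4, ADAMTS3 and KRT5 of the lower ones. MALAT1 had 12 probe sets between -0.05 and 2.21, with 11 above 0 and 9 at 2-fold. The probe set at -0.05 is the specific one described above. PLPP3 had -1.74, -1.07 and -0.13, FTX 0.68 and 1.47, ELF1 -1.39 and -0.19, RAD21 -1.15 and -0.36, and TOP1 -1.16 and -0.24. NANOG had 1.45 and 0.09. VAMP2 had 1.09, 0.64 and 0.39, and PSMA3-AS1 0.74, 0.69 and 0.09. STAG2 had -0.95, -0.87 and -0.11, PDE8B -1.08, -0.72 and -0.14, NAA35 -1.03 and -0.16, and ATP6V1A -0.79 and -0.17. HSPH1 had -1.14, -0.16 and 0.00, and ATP6V1H 0.92, 0.19 and 0.00, so that 1 probe set carried each mean. Probe sets lay on both sides of 0 for RBM25 (7 between -1.16 and 0.33), NDUFS1 (5 between -0.91 and 0.11), RPL37 (4 between -0.81 and 0.26) and TSC22D3 (3 between -0.56 and 0.04).

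SKI, a repressor of TGF-beta signalling, differed by -0.58 as a mean of -2.10, 0.06 and 0.31, so that a single probe set carried it. That probe set had -2.10 with BSA and 0.00 in untreated cells. The antagonist arrays had -1.42 with G15, -0.77 with E2-BSA plus ICI and -0.68 with E2-BSA plus G15, against 0.21 with E2-BSA, 0.09 with estradiol and 0.20 with ethanol. Here too BSA and the antagonist arrays were the low ones. EPRS1 (-1.55, -0.31 and -0.29), EDEM3 (-1.43, -0.35 and -0.28) and DEPDC1 (-1.71 and 3 between -0.36 and -0.25) had the same make-up of 1 far and several near probe sets.

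**Figure D3:**
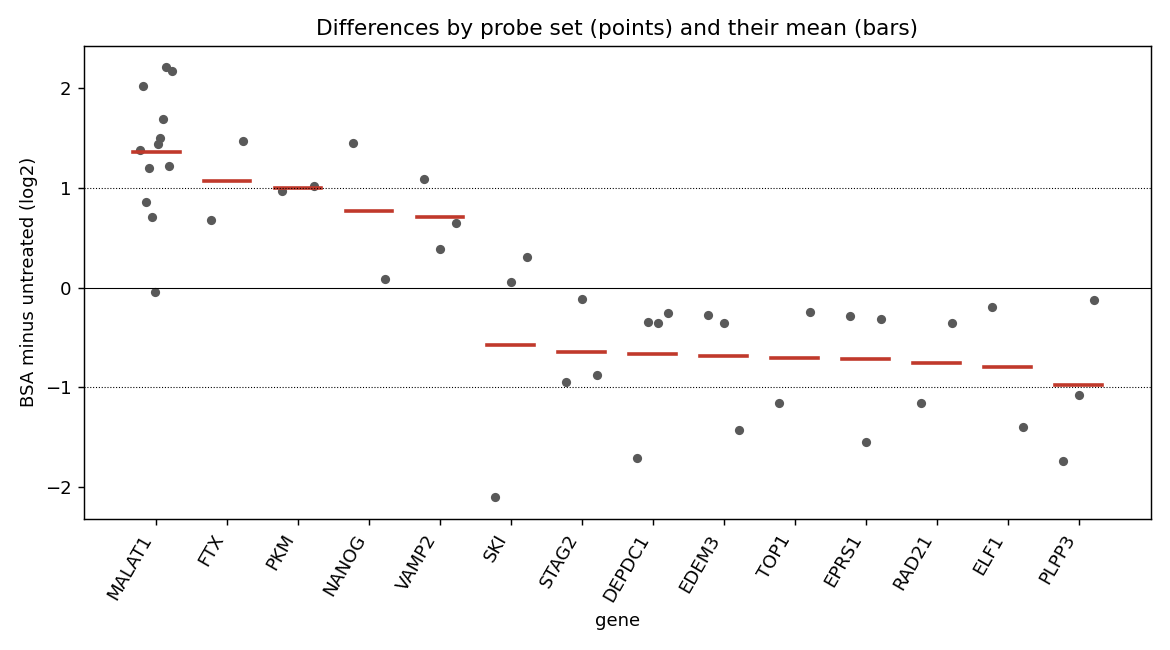
BSA minus untreated (log2) by probe set for 14 genes, with red bars at the mean and dotted lines at 2-fold. MALAT1 has 11 of 12 points above 0, PKM has both next to the 2-fold line, and SKI, DEPDC1, EDEM3 and EPRS1 each have 1 point far below the rest.

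Whether BSA or untreated stood apart was read against the other 6 arrays. Of the 70 genes 1.5-fold higher, the BSA array was the highest of 8 in 50 (71.4%, beside 11% of all genes) and the untreated array the lowest in 36 (51.4%, beside 9.1%). Of the 40 lower genes, the BSA array was the lowest in 31 (77.5%, beside 11.3%) and the untreated array the highest in 16 (40%, beside 8.55%). The difference itself makes such ranks likely, so nothing is read from the background here.

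The 3 arrays with G15 or ICI, here called antagonist arrays, were set against E2-BSA, estradiol and ethanol, which together share no array with the BSA comparison. What ICI acts on is not stated in the labels, so the grouping does not stand for 1 shared receptor. The grouping is also uneven in albumin, the substance added in the BSA comparison. Every antagonist array except G15 alone received albumin through the conjugate. Among the arrays set against them, estradiol and ethanol received none. The part of albumin in the overlap below was not tested. All 3 antagonist arrays lay above the other 3 in 25 of the 70 higher genes (35.7%), beside 9.55% of all genes, and below them in 6 (8.57%). They lay below in 12 of the 40 lower genes (30%), beside 8.02% of all genes, and above in 1. Without the ethanol array, a choice made after the data were seen, the counts were 28 of 70 (beside 12.5%) and 15 of 40 (beside 11.6%). Across all 19775 genes, which are not independent replicates, the BSA difference and the antagonist difference had a Pearson r of 0.250 and a Spearman rho of 0.256. Without ethanol they were 0.266 and 0.253. All values were centred over the arrays of the same probe set, which ties the arrays to each other, and its part in this was not tested.

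**Figure D4:**
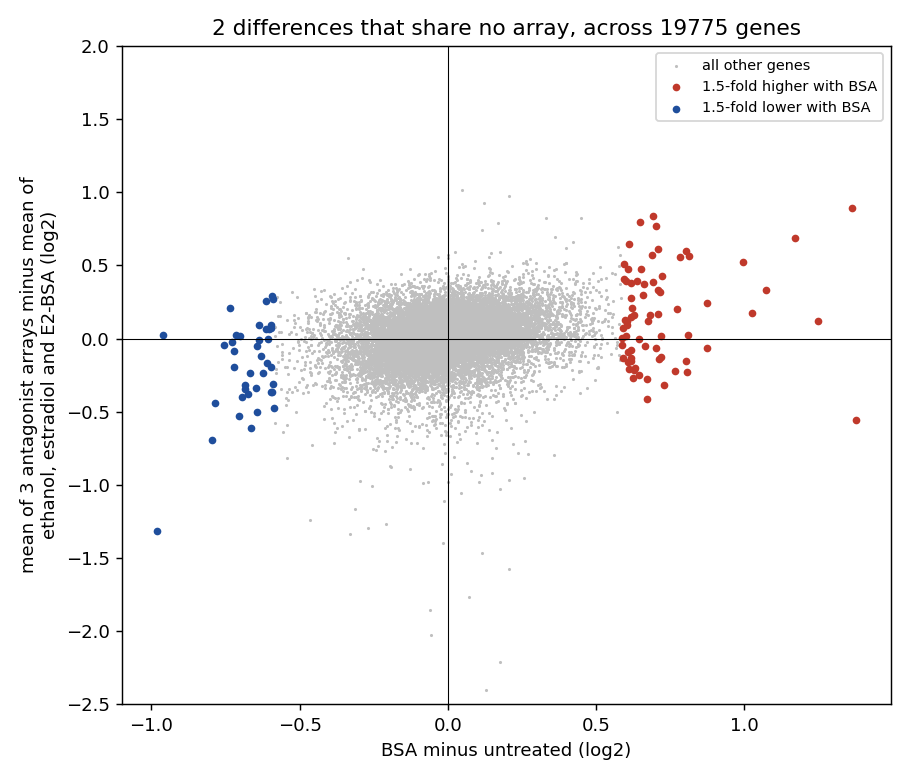
Mean of the 3 antagonist arrays minus mean of E2-BSA, estradiol and ethanol against BSA minus untreated (both log2), 1 point per gene, with 1 gene outside the plotted range. Red points are the 70 genes 1.5-fold higher with BSA and blue points the 40 lower. MALAT1 and LMTK3 lie at the upper right, LOC114224 at the lower right and PLPP3 at the lower left.

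Control probe sets were compared in the same way. The 18 probe sets of the hybridization controls, which are added before hybridization, were all higher on the BSA array, with a median difference of 0.13, a median value of 0.28 with BSA and 0.13 in untreated cells. The 5′ probe sets of the added poly-A controls had a median difference of -0.18 over 8 probe sets, and the 3′ ones 0.01. The 5′ median values were -0.12 with BSA, -0.27 with G15 and -0.39 with E2-BSA plus ICI, against 0.00 in untreated cells. They were 0.31 with E2-BSA plus G15, 0.26 with E2-BSA, 0.04 with ethanol and -0.01 with estradiol. For ACTB the 5′ probe set differed by -0.11 and the 3′ one by -0.04, and for GAPDH by -0.12 and 0.00. Their part in the gene differences was not tested.

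Genes that were higher with BSA had shorter median spans in the genome. The median span in RefSeq was 9.76 kb for the 70 genes 1.5-fold higher and 14.7 kb for those between 1.25 and 1.5-fold higher. It was 25.2 kb for genes within 1.25-fold, 25.5 kb for those between 1.25 and 1.5-fold lower and 29.8 kb for 39 of the 40 genes 1.5-fold lower. Among protein-coding genes these medians were 15.5, 15.8, 28.8, 29.5 and 38.9 kb. This describes 2 arrays and has no replicate check.

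A limma fit of all 8 arrays took the presence of BSA, estradiol, ethanol, G15 and ICI as terms that add up. It uses E2-BSA arrays as further arrays with albumin and has 2 residual degrees of freedom. The ethanol term was set for the ethanol array alone and the ICI term for E2-BSA plus ICI alone. These arrays are thus fitted exactly and do not bear on the BSA term. The estradiol array was coded without ethanol, although ethanol is the vehicle of estradiol. At an adjusted p under 0.05 it called 0 genes for BSA (0%), and 715 genes (3.62%) had an unadjusted p under 0.05. The BSA term was 0.69 for MALAT1 (SE 0.20), 0.63 for IFI27 (SE 0.22), 0.56 for IFI6 (SE 0.17) and 0.53 for LMTK3 (SE 0.18). Each had an adjusted p of 0.999969 in limma. All 4 terms were smaller than the difference of the 2 arrays. The genes were named for a large difference, which makes smaller terms likely, so nothing is read from this.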

How the data were processed

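The deposited values of 8 arrays, 1 per condition, were used as given. They were read as log2 values that the authors deposited already centred, since in every probe set at most 4 arrays lie above 0 and at most 4 below, and since every array has a median of 0.00. No source used here states their log base, summarization or normalization. Biotin-labelled total RNA was hybridized by the array maker's manual, per the labels' protocols. Each array took its group from its title. The 62 control probe sets, 1801 with several symbols and 11721 with none stayed out of the gene means. No filter on low values is possible without levels.

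Genes were the mean of their probe sets. Named genes were all at 2-fold, the 12 largest differences each way, the 10 highest and 10 lowest among genes whose probe sets share a direction, and in each of 45 lists the members at 1.5-fold or else the highest and lowest (up to 4 each way for interferon, noncoding RNA, G1/S and histone lists). Members, lists and tests were chosen with earlier results of these data known. Alternatives were 10, among them quantile scaling, other probe set summaries, other comparators, natural logarithms and a limma fit (limma 3.58.1, R 4.3.3), whose test was checked on simulated data. Tables used Python 3.11.15 and pandas 2.3.3. Promoters and gene spans are RefSeq's, on GRCh38.p14.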

Additional observations from a re-analysis of the deposited data

Results flagged for a closer look

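Probe sets that the annotation leaves without a gene symbol had a signal that the gene comparison does not use. Of 11721 such probe sets, 129 were at least 2-fold higher with BSA (1.1%) and 1 was lower, beside 46 (0.112%) higher and 37 lower of the 41091 with 1 symbol. At 1.5-fold, 560 were higher and 41 lower, beside 396 and 314. Over the 129 the median value was 0.66 with BSA and -0.54 in untreated cells, and the 6 other arrays had medians between -0.16 and 0.06. The BSA array was the highest of 8 in 112 and the untreated array the lowest in 108, ranks that the choice of these probe sets favours. Differences from the untreated array were one-sided elsewhere too, and they share that array. Ethanol minus untreated gave 107 probe sets 2-fold higher and 2 lower, E2-BSA plus ICI 36 and 4, estradiol 10 and 0, E2-BSA plus G15 10 and 2, G15 6 and 0, and E2-BSA 3 and 0. BSA minus the other arrays gave 60 higher and 83 lower with ethanol, 49 and 0 with G15, 20 and 4 with E2-BSA plus G15, 11 and 6 with E2-BSA plus ICI, 7 and 1 with E2-BSA, and 6 and 3 with estradiol.

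The 18 probe sets of the hybridization controls, which are not human transcripts, were all higher on the BSA array than on the untreated one, by 0.0533 to 0.333 with a median of 0.134. Their median value was 0.28 with BSA and 0.13 in untreated cells. It was 0.21 with G15, 0.00 with E2-BSA plus G15 and 0.37 with E2-BSA plus ICI, against -0.25 with E2-BSA, -0.18 with estradiol and -0.06 with ethanol.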

How the results depend on the processing

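No paired analysis was possible because every condition has 1 array. The count of genes 2-fold higher, 6 with the values as deposited, was 13 after quantile scaling, 38 by the probe set with the largest difference, 2 for BSA minus the median of the 6 other arrays, 0 for that median minus untreated, 28 with natural logarithms, 70 at 1.5-fold and 0 by the limma term. The count 2-fold lower, 0 as deposited, was 16, 34, 1, 1, 13 and 40 under the first 6 of these, and 1 by the median of probe sets. The SD over genes, 0.166, was 0.268 by the largest probe set and 0.0924 for the limma term. Lists with a median of at least 0.1 in size were 4 as deposited and 5 after quantile scaling. By the largest probe set they were 22, and by the limma term 1. For BSA minus the other arrays they were 2, and for the other arrays minus untreated 1. After quantile scaling the highest median was that of immediate early genes at 0.126, with interferon effectors at 0.109. MALAT1 turned to -0.0451 when only its single specific probe set was used, and the median of immune markers to 0.00384 for the other arrays minus untreated. The causes were not tested, beyond what choosing the largest probe set, a lower fold or a smaller log base does by construction. Of the list medians under alternatives, 358 moved by less than 0.166, the SD over genes. Every list median as deposited was itself smaller than 0.166 in size, the largest being -0.14 for G1/S genes. A median could thus fall to 0 within that limit, so the count of 358 does not show that the medians hold. Of the values of the 6 genes at 2-fold, 20 moved by less than 0.166 and 26 by more with their direction kept. What limits these results is 1 array per condition, centred values without level or signal over background, and an unstated log base.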
